A study of Drosophila melanogaster with 6 samples.

Results

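Digestive enzyme genes of the midgut were followed in RNA of *Drosophila melanogaster* stage 14 oocytes, the mature oocytes at the end of ovarian development. The set holds 31 of the 14862 genes in the authors' deposited table, chosen by name: the 16 Jonah genes (names that begin with Jon and a number), 11 trypsin genes with a Greek letter, the amylase genes Amy-p and Amy-d, the carboxypeptidase gene CG12374 and the aspartic protease gene Bace. All 31 genes that carry these names in the reference annotation were present in the table, and all had a likelihood ratio above 0. The names were picked with the fold changes of these genes known, so their values describe the set and test nothing about it.

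The study compared oocytes that expressed InR-DN (3 samples), a means of insulin suppression in the submitters' wording, with oocytes that expressed GFP as the control (3 samples). Each sample was RNA from 200 oocytes of flies kept on standard food with yeast paste. RNA was selected for polyA tails per the labels, and they name neither the driver of the transgenes nor the strain. Only the authors' comparison of the groups was analysed here. It has no values per sample, so the values of single samples, the depth of each library and the spread between replicates cannot be shown. Nothing in the labels says that the pools came from separate flies or days, and the p-values then cover only the spread between these pools, which may be technical. Which group stands on top of the fold change is not stated in the table. A positive fold change is therefore not assigned to the InR-DN oocytes or to the GFP control oocytes. The title of the table calls the material embryos while the labels call it oocytes.

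Enterocytes of the fly midgut secrete digestive enzymes into the gut lumen. Trypsins cut proteins after the basic residues lysine and arginine, and Jonah genes encode a family of chymotrypsin-like serine proteases. Carboxypeptidases release amino acids from the ends of the peptides so made, pepsin-like aspartic proteases cut within chains, and amylases break starch into sugars. Serine proteases of this kind are made as inactive precursors and are encoded in fly genomes by tandem arrays of similar genes. No protein, promoter or genome sequence was at hand, so none is printed.

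A gene is called when its adjusted p from the likelihood ratio test is under 0.05 as listed by the authors' deposited table. By this measure 25 of the 31 digestive enzyme genes were called, 23 with a positive and 2 with a negative log2 fold change, and 6 were not called. Over the 13080 genes with a likelihood ratio above 0, 5.10% were called, 2.61% with a positive and 2.48% with a negative sign. Log2 fold changes of the 31 genes in the authors' deposited table ran from -2.46 to 10.96 with a median of 2.85, beside a median of 0.03 over the 13080 genes. Of the 10 genes with the highest likelihood ratio in the authors' deposited table, 6 were digestive enzyme genes, and 14 were among the first 50. The error given with a fold change is a standard error (SE) worked back from the authors' fold change and likelihood ratio, called the model SE. For the 31 genes it ran from 0.23 to 1.55 with a median of 0.33. It rests on the authors' model alone and says nothing of how far single samples lay apart. In bulk RNA, fewer cells of a type and less RNA per cell cannot be told apart.

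**Figure D1:**
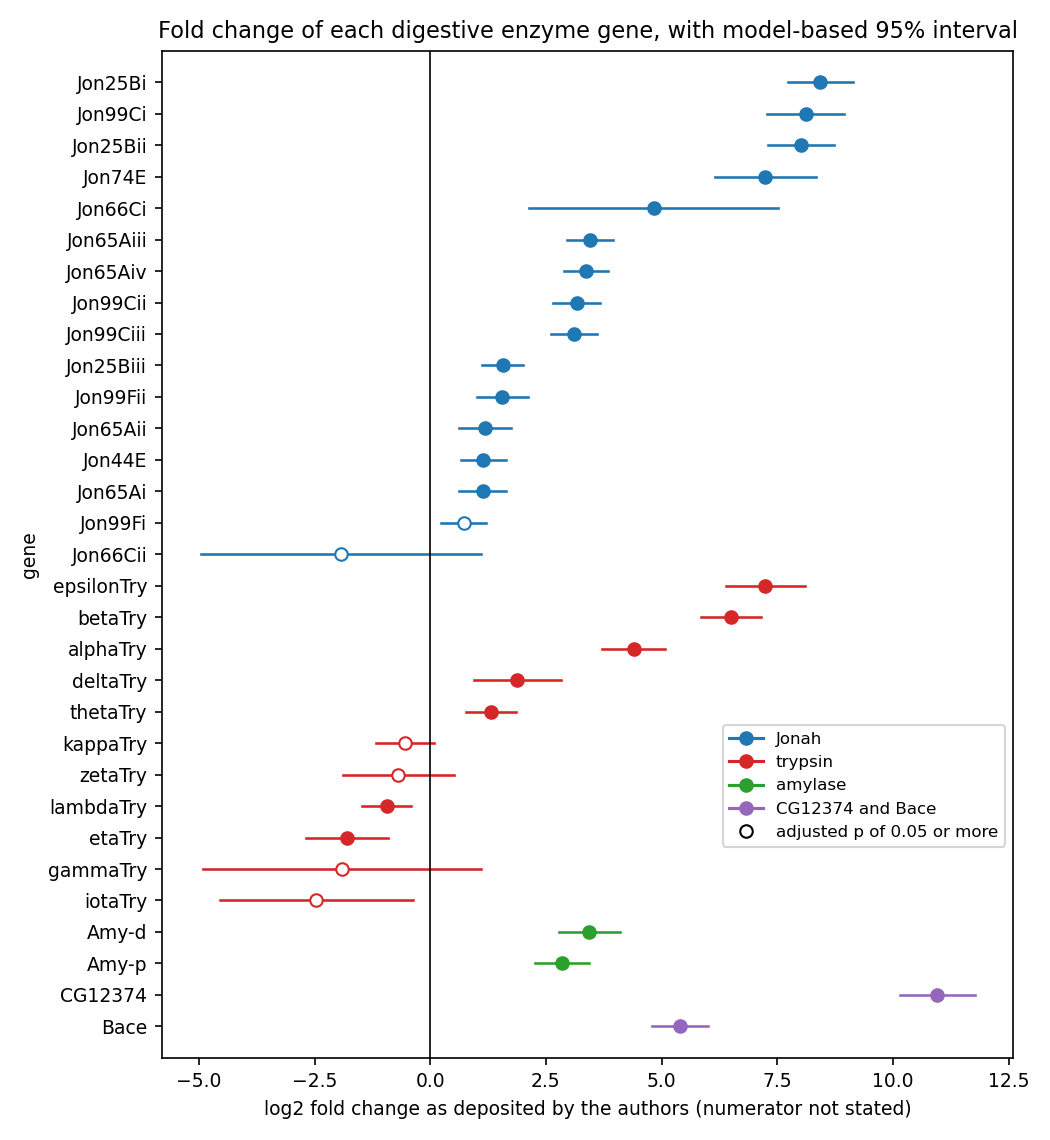
The log2 fold change of each of the 31 genes as deposited by the authors (x axis), grouped by family (y axis), with the 95% interval of 1.96 model SE on either side. Filled points were called at an adjusted p under 0.05, open points were not. Jonah genes spread from -1.93 to 8.43 and trypsins from -2.46 to 7.25.

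CG12374 had the highest likelihood ratio of all genes in the authors' deposited table, 719. Its log2 fold change was 10.96 in the authors' deposited table, with a model SE of 0.41 (adjusted p = 4.1e-154). CG12374 encodes a metallocarboxypeptidase, an enzyme that trims peptides from the carboxyl end. Its average log2 CPM (a log2 scale of reads relative to the size of the library, averaged in the authors' fit) was 5.95 in the authors' deposited table, the highest of the 31 genes. Divided by the length of its reference mRNA, that average corresponded to 42.2 CPM per kilobase, again the highest of the set. Fold changes of this size are fitted values, here and for the highest Jonah genes and trypsins below. It is not known whether the lower group held any reads of these genes, so the exact size of such values is uncertain. Bace, a pepsin-like aspartic protease gene named after a vertebrate secretase, stood at 5.40 in the authors' deposited table (model SE 0.31, adjusted p = 5.7e-66). Bace lies within the span of the gut hormone gene Dh31 on the same strand of chromosome arm 2L. The authors' deposited table lists Dh31 at 0 for both its fold change and its likelihood ratio.

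The amylase genes had similar values. Amy-d stood at 3.44 (model SE 0.34) and had an average log2 CPM of 2.40 in the authors' deposited table. Amy-p stood at 2.85 (model SE 0.30) with an average log2 CPM of 2.80 in the authors' deposited table. Their 95% intervals overlapped, from 2.78 to 4.10 for Amy-d and from 2.26 to 3.44 for Amy-p. These genes are an inverted pair of near-identical copies with 494 codons each, so reads could be split between them and their calls may not be separate results. Other carbohydrate-digesting enzymes did not share one sign. Of 9 tested genes, among them lysosomal-type alpha-mannosidases, 2 were called positive and 1 negative, and the list median was -0.07. That is 33.3% called, beside 5.10% of all tested genes. In the authors' deposited table Gal, a beta-galactosidase gene, was at 1.87 (model SE 0.41) and the alpha-mannosidase gene CG9466 at -1.56 (model SE 0.27). LM408, the uncalled alpha-mannosidase gene with the highest average, was at 0.06 in the authors' deposited table.

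Of the 16 Jonah genes 14 were called and all 14 calls were positive, with a family median of 3.13. Of the called genes 13 fell into 3 ranges, set after their values were seen, and Jon66Ci, at 4.83 with an interval from 2.14 to 7.52 in the authors' deposited table, lay between the upper ranges and overlapped both. In the authors' deposited table Jon25Bi, Jon99Ci, Jon25Bii and Jon74E were highest, at 8.43, 8.12, 8.01 and 7.24, with model SE of 0.36, 0.43, 0.37 and 0.56. Jon65Aiii, Jon65Aiv, Jon99Cii and Jon99Ciii formed a middle range of 3.46, 3.36, 3.16 and 3.10 in the authors' deposited table, with model SE between 0.24 and 0.26. The lowest range held 5 called genes between 1.13 and 1.56: Jon25Biii, Jon99Fii, Jon65Aii, Jon44E and Jon65Ai. Jon44E, at 1.15 in the authors' deposited table, differed 2.22-fold between the groups, with an model SE of 0.24 and an adjusted p of 1.4e-04. It overlaps CG8586 on the opposite strand of chromosome arm 2R, which stood at -0.03 in the authors' deposited table. The kit in the labels keeps the strand of a read, while the strand setting of the counting is not given in the sources used here, so reads in such overlaps cannot be told apart.

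Jonah genes of like average abundance could differ widely in fold change. Jon25Bi and Jon25Biii had nearly equal averages of 4.48 and 4.46 log2 CPM in the authors' deposited table, or 25.8 and 26.5 CPM per kilobase of mRNA. Their log2 fold changes in the authors' deposited table were 8.43 and 1.56. Jon74E had an average of 0.38 log2 CPM in the authors' deposited table, or 1.44 CPM per kilobase, and its fold change was in the highest range. Jon65Aiv had the highest average of the Jonah genes, 4.93 log2 CPM in the authors' deposited table or 33.7 CPM per kilobase, with a fold change in the middle range. Which libraries enter the authors' average is not stated, so it is not known to be a level of these samples. Genes listed at 0 for both fold change and likelihood ratio had differing averages in the authors' deposited table, such as -2.31 for Dh31 and -3.57 for Spn100A. What reads those averages hold was not tested.

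**Figure D2:**
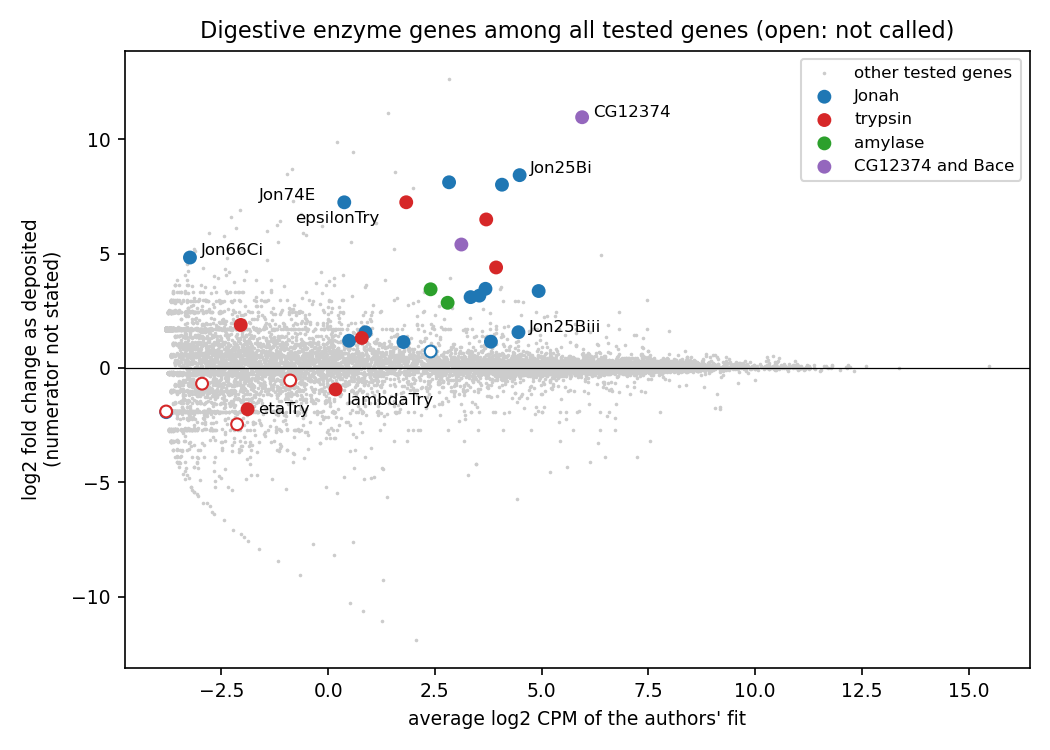
Log2 fold change as deposited (y axis) against the average log2 CPM of the authors' fit (x axis) for the 13080 genes with a likelihood ratio above 0 in grey and for the digestive enzyme genes in colour by family. Open points were not called, and Jon66Cii lies under gammaTry at the far left. Jon25Bi and Jon25Biii lie at averages of 4.48 and 4.46 and at fold changes of 8.43 and 1.56.

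The remaining 3 Jonah genes were less certain. Jon99Fi stood at 0.72 in the authors' deposited table (model SE 0.24, adjusted p = 0.066), and its unadjusted p was 0.0032. Jon66Ci was called, at 4.83 (adjusted p = 0.013) in the authors' deposited table, but its model SE of 1.37 was exceeded only by those of gammaTry and Jon66Cii in the set and its average was -3.24 log2 CPM. Jon66Cii was not called and stood at -1.93 in the authors' deposited table (model SE 1.55, average -3.80 log2 CPM). Exactly the same fold change and likelihood ratio as for Jon66Cii were listed for 33 other genes, so its value is one that many genes of very low average share.

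Of the 11 trypsin genes 5 were called positive, 2 were called negative and 4 were not called. All 11 lie in a single cluster on chromosome arm 2R. The positive calls covered epsilonTry at 7.25, betaTry at 6.49, alphaTry at 4.39, deltaTry at 1.88 and thetaTry at 1.31 in the authors' deposited table. Their model SE were 0.44, 0.33, 0.35, 0.48 and 0.27 in the same order. The trypsins with a negative call were etaTry, at -1.80 in the authors' deposited table (model SE 0.45, adjusted p = 0.0024), and lambdaTry, at -0.94 (model SE 0.27, adjusted p = 0.015). At an adjusted p under 0.01 etaTry remained as the 1 negative call. The uncalled trypsins iotaTry, gammaTry, zetaTry and kappaTry had values of -2.46, -1.90, -0.69 and -0.55 in the authors' deposited table, with model SE of 1.06, 1.53, 0.61 and 0.33. Of these, iotaTry alone had an unadjusted p under 0.05, at 0.021, and its adjusted p was 0.27.

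Jonah genes and trypsins thus differed in how their members were distributed. Called positive were 14 of 16 Jonah genes (87.5%) and 5 of 11 trypsins (45.5%), and the 2 negative calls of the set were both trypsins. The family medians were 3.13 for Jonah genes and -0.55 for trypsins, a difference of 3.68, but without the genes that averaged below 0 log2 CPM the medians were 3.13 and 4.39 and the difference turned to -1.26. That restriction kept 14 Jonah genes and 5 of the 11 trypsins, of which 4 were called positive and 1 negative. Over all digestive enzyme genes it kept 23, of which 22 were called, 21 positive and 1 negative, beside 4.14% of all genes at such averages, 2.54% positive and 1.60% negative. A gene can pass it through the group in which it is high, so the restricted medians leave out genes that were low in both groups. Weighted by the inverse square of the model SE, the means were 2.85 for Jonah genes and 1.76 for trypsins. These weights come from the same fits and give little part to genes with a large model SE, such as gammaTry at 1.53 and iotaTry at 1.06. The weighted means are thus no separate check of the difference. The highest members of both families reached like sizes, 8.43 for Jon25Bi and 7.25 for epsilonTry in the authors' deposited table, with intervals from 7.73 to 9.13 and from 6.38 to 8.11.

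Along the chromosome the first 8 trypsins formed a run of negative values followed by a run of positive ones. At the start, lambdaTry, kappaTry, zetaTry and etaTry had negative values between -1.80 and -0.55 in the authors' deposited table, of which kappaTry and zetaTry were not called and had intervals that included 0. The next 4 genes, thetaTry, alphaTry, epsilonTry and betaTry, had positive values of 1.31, 4.39, 7.25 and 6.49 in the authors' deposited table, and all 4 were called. The 95% intervals of etaTry and thetaTry, which adjoin each other, did not overlap, running from -2.69 to -0.92 and from 0.78 to 1.85. The last 3 named genes of the array alternated, with gammaTry at -1.90, deltaTry at 1.88 and iotaTry at -2.46 in the authors' deposited table. All 3 had averages of -2.05 log2 CPM or less in the authors' deposited table.

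The genes gammaTry, deltaTry and CG30031 are known as near-identical copies, and CG30031 had the same fold change of -1.90 and the same likelihood ratio as gammaTry in the authors' deposited table. A total of 26 other genes shared that pair of values with gammaTry. For deltaTry, CG13202 overlaps on the opposite strand and stood at -1.65 (adjusted p = 0.86) in the authors' deposited table. The values of gammaTry and deltaTry are uncertain for these reasons.

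**Figure D3:**
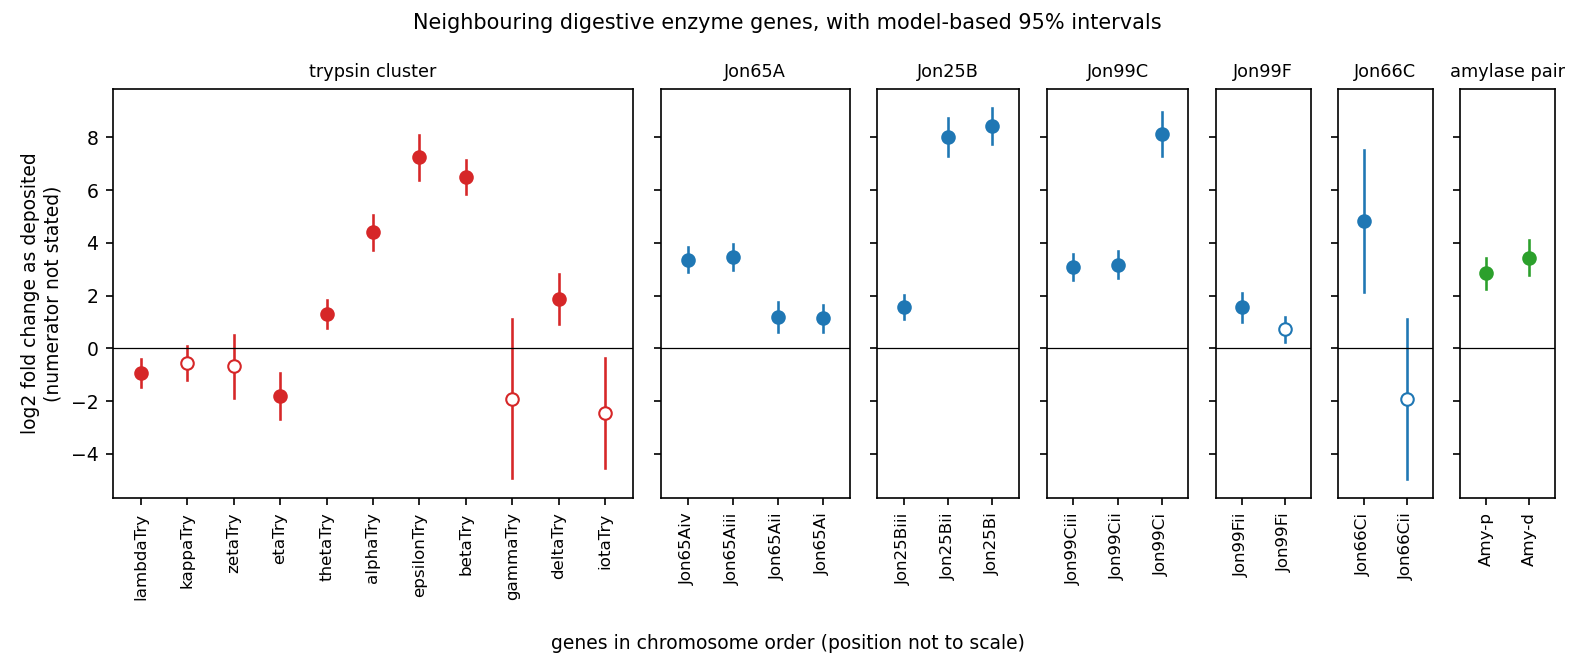
Log2 fold changes as deposited by the authors (y axis) for the 27 genes that lie in 7 clusters, in chromosome order within each panel (x axis, not to scale), with 95% intervals of 1.96 model SE on either side. Open points were not called. In the trypsin cluster thetaTry, alphaTry, epsilonTry and betaTry lie above 0 between genes with negative values.

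Neighbouring Jonah genes also differed. In the Jon25B cluster on arm 2L, Jon25Bii and Jon25Bi stood at 8.01 and 8.43 in the authors' deposited table, while Jon25Biii beside them was at 1.56. The interval of Jon25Biii ran from 1.12 to 2.00 and did not meet those of the other Jon25B genes, which began at 7.29 and 7.73. In the Jon99C cluster on arm 3R, Jon99Ci at 8.12 in the authors' deposited table stood apart from Jon99Cii at 3.16 and Jon99Ciii at 3.10. Jon99Cii and Jon99Ciii encode 265 codons each and are known as copies with the same protein product, so their nearly equal values may not be separate results. In the Jon65A cluster on arm 3L the outer members on one side, Jon65Aiv and Jon65Aiii, were at 3.36 and 3.46, and Jon65Aii and Jon65Ai at 1.19 and 1.13 in the authors' deposited table. Jon99Fii was called, at 1.56, and its neighbour Jon99Fi was not at 0.72 in the authors' deposited table, with overlapping intervals from 1.01 to 2.10 and from 0.24 to 1.20.

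Among all 20 pairs of successive members within the 7 clusters, 15 had the same sign and 5 had opposite signs. Other genes lie between gammaTry and deltaTry (2), deltaTry and iotaTry (1), and Amy-p and Amy-d (2). The 95% intervals of 9 pairs did not overlap and those of 11 did. The smallest difference was 0.06, between Jon65Aii and Jon65Ai, and the largest was 8.40, between betaTry and gammaTry, of which gammaTry rests on a very low average. Intervals of neighbours are not a test of the difference, since the genes come from the same libraries.

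Of the 22 nearest tested genes on either side of the clusters and single members 1 was called, a share near the 5.10% of all tested genes. The other 21 were not called, lying between -1.90 and 1.68 in the authors' deposited table on the log2 scale, and the median of all 22 was 0.13. The 1 called neighbour was CG7542, itself a chymotrypsin-like protease gene, which adjoins Jon74E on arm 3L. It stood at 5.53 in the authors' deposited table (model SE 0.44, adjusted p = 1.3e-33), beside 7.24 for Jon74E.

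Most members have a single exon, a feature that the choice by name did not use. In the reference annotation 25 of the 31 genes (80.6%) have a single exon, against 1567 of 10878 protein-coding genes of the table (14.4%). All 11 trypsins and 11 of the 16 Jonah genes are single-exon genes, and CG12374 has the most exons, 5. Trypsins encode proteins of 252 to 280 residues and Jonah genes of 258 to 276, against a median of 406 for protein-coding genes of the table. Bace encodes 372 residues, while CG12374 with 422 and the amylases with 494 each lie above that median. A reference mRNA of these serine proteases measures 810 to 1397 bases.

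Other protease genes related to the members had calls of both signs. Among 15 tested chymotrypsin-like and trypsin-like genes outside the set, 4 were called positive and 1 negative, with a median of -0.05. That is 33.3% called, beside 5.10% of all tested genes. The positive calls were CG7542, CG18180 at 3.52, yip7 at 2.87 and CG18179 at 2.76 in the authors' deposited table, with model SE from 0.24 to 0.44. The negative call was CG6639, a serine protease homologue, at -3.20 in the authors' deposited table (model SE 0.81). CG10472, the uncalled gene of this list with the highest average, was at -0.33 in the authors' deposited table (model SE 0.46).

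Among 12 tested metallocarboxypeptidase genes, relatives of CG12374, 1 was called, CG18585 at -2.68 in the authors' deposited table (model SE 0.41), and the list median was -0.19. With 5.10% of all tested genes called, 1 call among 12 genes does not set the list apart. CG2915, the uncalled gene with the highest average, stood at 0.15 in the authors' deposited table (model SE 0.19). Among 9 tested aspartic protease genes related to Bace 1 was called positive and 1 negative (22.2% called), with a median of 0.06. CG31928 was at 1.37 (model SE 0.21), CG17134 at -1.42 (model SE 0.32) and the lysosomal protease gene cathD, uncalled, at 0.02 (model SE 0.21) in the authors' deposited table.

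Serine proteases with tasks outside digestion gave 2 calls among 18 tested genes (11.1%), beside 5.10% of all tested genes, with a median of 0.22. In the authors' deposited table modSP, which acts at the head of the Toll protease cascade of immunity, was at 2.72 (model SE 0.32) and spirit, another protease of that cascade, at -3.67 (model SE 0.74). The eggshell protease gene ndl, which starts the cascade that sets the dorsoventral axis, was uncalled at 0.41 in the authors' deposited table. Of 15 serpin genes, which encode inhibitors of serine proteases, none passed the authors' edgeR likelihood ratio test and 3 had an unadjusted p under 0.05. With 5.10% of all tested genes called, a list of 15 genes need not hold a call. Spn27A, the serpin gene with the highest average, stood at 0.07 in the authors' deposited table.

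None of 15 tested transcription and signalling factor genes of the midgut passed the authors' edgeR likelihood ratio test, 2 had an unadjusted p under 0.05, and the list median was 0.02. At the 5.10% called over all tested genes, a list of this length need not hold a call. The GATA factor gene srp, the most abundant of the list by average, stood at 0.24 in the authors' deposited table (model SE 0.19). Many of these factors are known to act outside the gut as well, and their averages ran from 0.85 to 7.32 log2 CPM.

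Structural genes of the gut lining went both ways. Among 12 tested genes of the peritrophic matrix and the enterocyte brush border 2 were called positive and 2 negative, with a median of -0.17. That is 33.3% called, beside 5.10% of all tested genes. The mucin-related gene Muc68E was at 2.27 in the authors' deposited table (model SE 0.52, average -2.13 log2 CPM). The gene Cry, listed in the reference as Crys, is known to encode a protein of the lens and the peritrophic matrix. It was at -3.88 (model SE 0.70) in the authors' deposited table, also at a low average of -2.65 log2 CPM. The uncalled gene with the highest average, the brush border myosin gene Myo31DF, was at 0.32 in the authors' deposited table (model SE 0.24). Of 8 tested hormone genes of gut endocrine cells 2 were called (25%), both positive, beside 5.10% of all tested genes. In the authors' deposited table the tachykinin gene Tk was at 3.32 (model SE 0.79) and CCHa2 at 2.33 (model SE 0.35). Their averages were -2.09 and 0.22 log2 CPM, so Tk rests on a low average. ITP, an uncalled hormone gene with the highest average of that list, stood at 0.46 in the authors' deposited table (model SE 0.27).

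**Figure D4:**
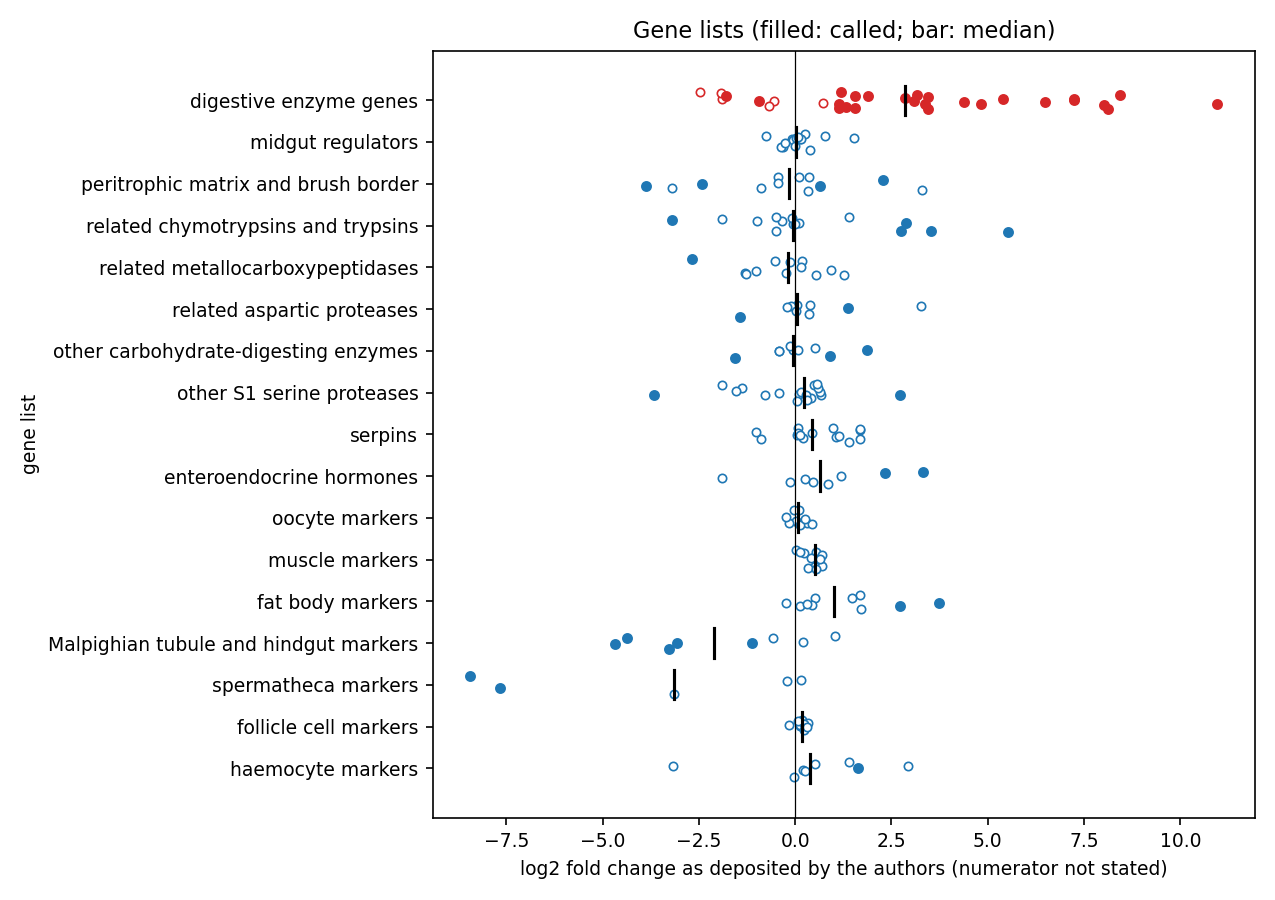
Log2 fold changes as deposited by the authors (x axis) for the 31 digestive enzyme genes in red and for 16 other gene lists in blue (y axis). Filled points were called, open points were not, and black bars are medians. The digestive enzyme genes have a median of 2.85, and the Malpighian tubule and hindgut list has a median of -2.10.

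Markers of the labelled cell and of other tissues were read beside the digestive genes. None of 10 maternal RNAs of the oocyte passed the authors' edgeR likelihood ratio test, and 0 had an unadjusted p under 0.05. Their averages ran from 3.11 to 10.99 log2 CPM and summed to 5044 CPM, against 279.6 CPM for the 31 digestive enzyme genes. Averages and their sums, here and in the tissue lists below, are not known to be levels of these samples. CycB, with the highest average of the 10 maternal RNAs, stood at 0.13 in the authors' deposited table. Among 12 eggshell genes of follicle cells none passed the authors' edgeR test and 0 had an unadjusted p under 0.05. Their summed average was 21706 CPM, and Cp15 was at -0.15 in the authors' deposited table. At the 5.10% called over all tested genes, lists of 10 and 12 genes need not hold a call.

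The marker lists of other abdominal tissues held calls of differing sign. Of 8 tested markers of the Malpighian tubules and hindgut 5 were called (62.5%), all negative, beside 5.10% of all tested genes. The calls ran from -4.68 for the hindgut factor gene byn (model SE 1.26) to -1.13 for the potassium channel gene Irk2 (model SE 0.36) in the authors' deposited table. Irk2 averaged -1.38 log2 CPM, had an adjusted p of 0.041 from the likelihood ratio test and was not called under 0.01. The summed average of that list was 211 CPM. Of its 8 genes 2 had positive values and were not called, among them bowl at 0.21 in the authors' deposited table. Of 5 spermatheca markers 2 were called (40%), the secreted protease genes Send1 at -8.43 and Ser12 at -7.68 in the authors' deposited table. Their model SE were 0.79 and 0.57, and they rest on low averages of -1.18 and -0.35 log2 CPM. Hr39, uncalled, was at 0.14. Among 10 fat body markers 2 were called (20%), Lsp2 at 3.73 and Lsp1beta at 2.71 in the authors' deposited table, with averages of -0.28 and -1.95 log2 CPM. The yolk protein gene Yp2, uncalled, was at 0.42 with an average of 10.57 log2 CPM. Whether Yp2 reads the fat body in this material was not tested.

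Among 13 muscle markers none passed the authors' edgeR likelihood ratio test, and 5 had an unadjusted p under 0.05. All 13 were positive with a median of 0.53, beside 55.9% positive and a median of 0.03 over all tested genes. Tm1 was at 0.13 in the authors' deposited table. The share of all tested genes with an unadjusted p under 0.05 was not worked out. Such counts in these lists thus have no background beside them. Of 8 haemocyte markers 1 was called, Pxn at 1.64, and Cg25C, uncalled, stood at 0.53 in the authors' deposited table. Pxn had an adjusted p of 0.045 from the likelihood ratio test and was not called under 0.01. With 5.10% of all tested genes called, 1 call among 8 genes does not set the list apart. The part of material from any of these tissues in the values of the digestive enzyme genes was not tested.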

How the data were processed

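RNA was measured in 3 InR-DN and 3 GFP control pools of stage 14 oocytes. FastQC, Bowtie and TopHat were used, per the submitters' processing notes. Genome build, counting tool and versions are not named by these notes or the labels, so each is not given in the sources used here. What was analysed is a comparison made by the authors with the likelihood ratio test of edgeR, per the title of the table. The log2 fold changes, the average log2 CPM, the likelihood ratio score and the p-value and adjusted p-value of each gene were all deposited by the authors.

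Recomputing each p from its likelihood ratio with a chi-square distribution gave differences of at most 6.4e-15, and recomputing the Benjamini-Hochberg adjustment over 14862 genes gave differences of at most 3.6e-15. A total of 1782 genes had a likelihood ratio of 0 and were not counted as tested. The model SE is the size of the log2 fold change divided by the square root of the likelihood ratio. Intervals took 1.96 model SE on either side. The adjustment was tested on simulated data. There the likelihood ratio was built from the SE itself, so the model SE was returned by construction. How well the model SE holds for read counts was therefore not tested, above all for large fold changes. The depth of each library is unknown, so no precision from counts is given.

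The members and the 16 other lists were chosen with earlier results of these data known. The lists cover midgut regulators, gut lining, relatives of the members, other proteases, serpins, gut hormones and markers of the oocyte and 6 other tissues. Of 192 listed names 12 were found by a synonym, 6 were not found, 1 repeated a gene and 3 were older names of members, which left 179 tested genes. From each list the text names the called genes with the largest and the smallest fold change and the uncalled gene with the highest average. CG18180, yip7, CG18179, CG30031, Dh31, Spn100A, CG8586 and CG13202 were named after their values were seen. Gene order came from RefSeq genes (assembly Release 6 plus ISO1 MT), and gene structure and lengths from the Ensembl annotation of BDGP6. Coordinates are not printed because the authors' build is unknown. A cluster is a run of members with at most 5 other genes between neighbours. Tables were handled in pandas 2.3.3 under Python 3.11.15, tests in scipy 1.17.1 and numpy 2.4.6, and figures in matplotlib 3.10.9.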

Additional observations from a re-analysis of the deposited data

How the results depend on the processing

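Calls of the digestive enzyme genes numbered 23 at an adjusted p under 0.01, 25 with adjustment over tested genes only, 22 of 23 genes with averages below 0 log2 CPM left out before adjustment, and 24 with a log2 fold change of at least 1 in size asked for as well. Jon66Ci and lambdaTry were lost at 0.01 and lambdaTry with the minimum fold. The negative calls, 2 in all, numbered 1 at 0.01, 1 without low averages and 1 with the minimum fold. The median of the set, 2.85, was 3.36 without low averages and 2.35 with near-identical pairs counted once, an alternative chosen after seeing the data. A gene can reach an average of 0 log2 CPM through the group in which it is high. Results without low averages are therefore no separate check of the calls or of the median. The difference of Jonah from trypsin medians, 3.68, was -1.26 without low averages and 1.08 between weighted means. The trypsin median of -0.55 was 4.39 without low averages and 1.76 as a weighted mean. Both alternatives give little or no part to the trypsins with the lowest averages. Without low averages 15 genes of the other lists were called, against 29 with them, out of 110 and 179 genes. The number of clusters, 7, did not change with at most 2 other genes allowed between neighbours. Counting proteins at least 90% identical once was not run, since no protein sequences were at hand. Leaving out replicates was not run, because values per sample were not analysed here. No paired analysis was possible because only a finished comparison, without sample columns, was at hand. Unknown depth limits every value of low average, above all those of Jon66Ci, Jon66Cii, gammaTry, deltaTry, zetaTry and iotaTry.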
